A study of Mus musculus with 28 samples.

Results

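Leptomeningeal macrophages sorted from the brains of bone marrow chimeras were compared by origin, cells derived from the donor marrow against cells of the host. They make up 12 of the 28 libraries of the series and were taken by their labels as leptomeningeal, 8 from GFP-negative and 4 from GFP-positive cells. The donor libraries are 4 from mutant and 4 from control chimeras, and the host libraries are 2 from mutant and 2 from control chimeras. All recipients were lethally irradiated Cx3cr1 gfp/+ mice, in which green fluorescent protein (GFP) stands in place of a copy of the chemokine receptor gene Cx3cr1. Mutant chimeras received Vav-Cre: hDNMT3A fl/fl marrow, and control chimeras received hDNMT3A fl/fl marrow without Cre. Vav-Cre recombines floxed alleles in blood-forming cells, so the host cells of both kinds of chimera carry the Cx3cr1 reporter and no marrow allele. Cells were collected 16 weeks after transplantation, washed from the surface of digested intact brains in the presence of actinomycin D and sorted, up to a set number of cells or fewer where cells were scarce. Neither the sort antibodies nor whether each library is a separate animal is given in the sources used here, so the spread behind each p-value is that among libraries, which may be technical. A host cell that does not express Cx3cr1 would also be GFP-negative, which is a limit of the gate.

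Leptomeningeal macrophages live in the thin membranes that cover the brain and belong, with perivascular macrophages, to the border-associated macrophages of the central nervous system. In mice they are seeded before birth and, without injury, largely keep up their own number, taking up debris and proteins from the cerebrospinal fluid through scavenger and lectin receptors. Irradiation followed by marrow transplantation opens this niche to circulating monocytes, which leave the marrow through the receptor Ccr2 and mature into macrophages in the tissue. Timd4, a receptor for phosphatidylserine on dying cells, and the lectin Cd209b are known as marks of long-resident macrophages, and Ccr2 and Plac8 as marks of monocytes and their recent offspring.

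RNA was measured in bulk with MARS-seq, a method that reads transcripts near their 3′ end and counts each molecule by a random barcode, the unique molecular identifier (UMI). Donor libraries held 1631558 to 3066506 UMIs and host libraries 877905 to 1475135 UMIs, so the host levels have the wider counting error. Levels are given as CPM, the UMIs of a gene per 1000000 UMIs of its library after edgeR's TMM scaling. Both sorts expressed macrophage genes. C1qa, a subunit of the complement starter C1q, ran from 4304 to 7420 CPM in donor libraries and from 10103 to 12622 CPM in host libraries. Neutrophil and homeostatic microglia genes were present as well and differed between the sorts, with values given below. In bulk RNA, fewer cells of a type and less RNA per cell cannot be told apart.

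The main question is how marrow-derived cells that have taken a place in the leptomeninges differ from the host cells that survived there. Of 12327 genes tested, 3719 (30.2%) passed edgeR's quasi-likelihood test in the difference averaged over genotypes at a Benjamini-Hochberg adjusted p under 0.05, which is the threshold of all calls here. Of all genes tested, 2083 (16.9%) were higher in donor cells and 1636 (13.3%) were lower. At least 2-fold differences were called for 941 genes (7.63%) that were higher and 611 genes (4.96%) that were lower in donor cells. The 8 donor and 4 host libraries did not overlap for 2459 genes (19.9%). The median difference over all genes was 0.02 on the log2 scale. It was -0.22 when libraries were scaled by their totals alone, which left 1317 higher and 3088 lower genes, and 0.71 when they were scaled to 15 pan-macrophage genes, which left 6866 higher and 380 lower genes. Differences below are relative to the TMM scaling, and other scalings are given for some of the results that they change. A list's counts under another scaling belong beside the counts over all genes just given for that scaling, not beside 16.9% and 13.3%.

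**Figure D1:**
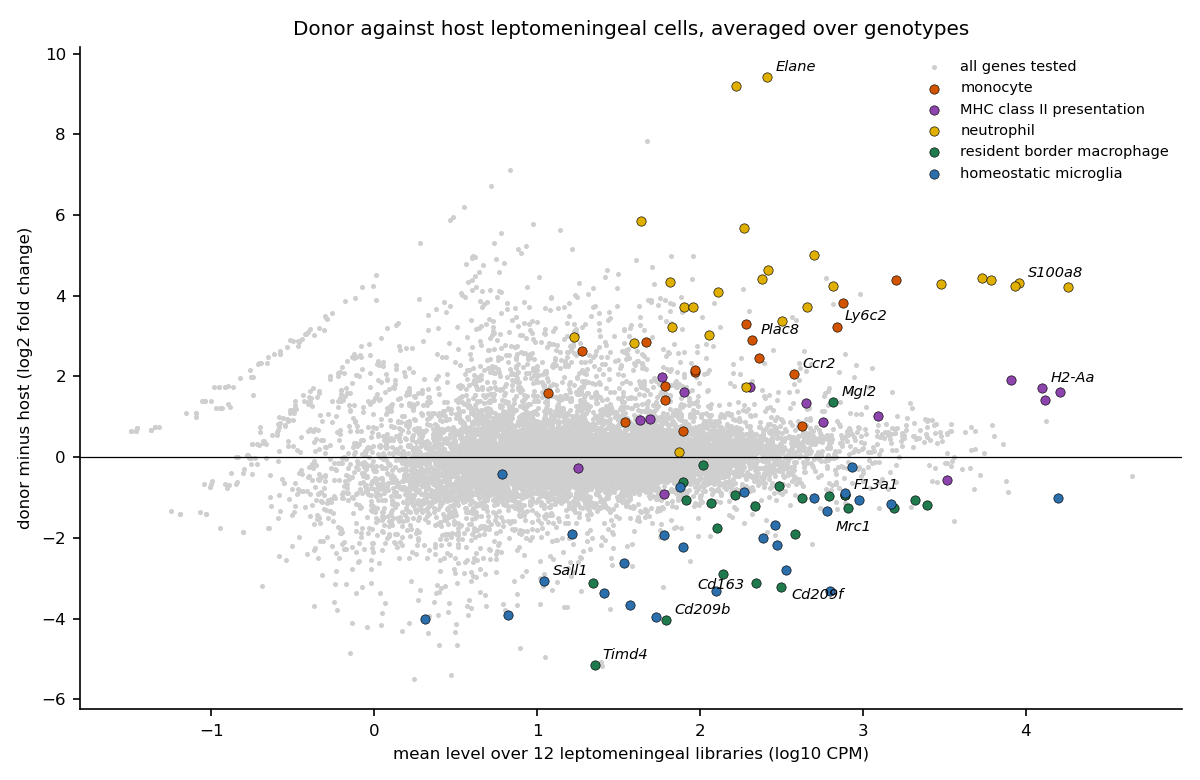
The log2 difference, donor minus host and averaged over genotypes, is plotted against the mean level over the 12 leptomeningeal libraries (log10 CPM) for 12327 genes (grey), with members of 5 gene lists in colour. Neutrophil and monocyte genes lie above 0 with the exception of F13a1, also a border macrophage gene, while microglial genes and border macrophage genes other than Mgl2 lie below 0.

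Timd4, Cd209b and Cd209f had the largest differences of the 23 border macrophage genes, all in favour of the host. Timd4 ran from 0 to 3.29 CPM in the 8 donor libraries, with a median of 1.94, and stood at 74.0 and 75.4 CPM in host libraries of mutant chimeras and 49.1 and 57.0 CPM in those of control chimeras. The lowest host library was thus far above the highest donor library. The difference was -5.14 ± 0.29 on the log2 scale (SE; edgeR adjusted p = 8.31e-19), resting on 30 UMIs in all donor and 299 in all host libraries. Cd209b had a lowest, median and highest level of 6.29, 9.21 and 15.0 CPM in donor cells, against 128 and 174 CPM in mutant-chimera host cells and 148 and 215 CPM in control-chimera host cells. The difference was -4.03 ± 0.18 (log2, SE; edgeR adjusted p = 1.59e-21), again with no overlap.

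Cd209b lies in a cluster of related C-type lectin genes on mm10 chromosome 8, whose members were chosen for display after their values were seen. The genes are related, and how far 3′ reads are split between them was not tested, so single values are uncertain. Cd209f had 53.8 to 130 CPM in donor cells (median 76.9), against 609 and 906 CPM in mutant-chimera host cells and 797 and 804 CPM in control-chimera host cells. Cd209g had 29.2 to 63.5 CPM in donor cells (median 44.3), against 307 and 386 CPM in mutant-chimera host cells and 271 and 335 CPM in control-chimera host cells. Both were lower in donor cells without overlap, Cd209f by -3.21 ± 0.22 (edgeR adjusted p = 1.73e-10) and Cd209g by -2.88 ± 0.18 (edgeR adjusted p = 3.67e-13) on the log2 scale. Cd209d was lower by -0.98 ± 0.26 (adjusted p = 0.00301), with overlapping libraries, and the call was lost at -0.32 under pan-macrophage scaling and at -0.59 without host library 2 of mutant chimeras. Cd209a differed by 0.25 ± 0.14 (adjusted p = 0.173) and Cd209c by -0.24 ± 0.26 (adjusted p = 0.536), and neither passed the test. Under pan-macrophage scaling Cd209a was called at 0.96, and Cd209c, at 0.43, turned direction without a call. Cd209a, also a gene of monocyte-derived dendritic cells, had 144 to 297 CPM in donor cells (median 213), against 130 and 212 CPM in mutant-chimera host cells and 172 and 203 CPM in control-chimera host cells. Genes of 1 family thus ran from a large difference to none that passed the test under the TMM scaling.

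The promoters of Timd4 and of 4 Cd209 genes are shown because these genes differ in how far they separate the sorts. Each run is 300 bases, from 250 before to 50 after the annotated start (RefSeq, GRCm38.p6, the mm10 build), read 5′ to 3′ on the gene's strand. Timd4 lies at chr11:46810549-46810848 on the plus strand, Cd209b at chr8:3926792-3927091 on the minus strand and Cd209f at chr8:4105715-4106014 on the minus strand. Cd209g lies at chr8:4134486-4134785 on the plus strand and Cd209a at chr8:3748935-3749234 on the minus strand. Capitals mark motif matches, searched on both strands.
Timd4: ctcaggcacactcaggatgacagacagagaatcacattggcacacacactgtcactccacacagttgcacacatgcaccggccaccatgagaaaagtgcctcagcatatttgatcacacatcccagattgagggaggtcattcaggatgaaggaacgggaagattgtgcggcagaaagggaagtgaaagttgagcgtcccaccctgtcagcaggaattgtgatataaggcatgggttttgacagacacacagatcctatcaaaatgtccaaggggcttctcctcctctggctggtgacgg
Cd209b: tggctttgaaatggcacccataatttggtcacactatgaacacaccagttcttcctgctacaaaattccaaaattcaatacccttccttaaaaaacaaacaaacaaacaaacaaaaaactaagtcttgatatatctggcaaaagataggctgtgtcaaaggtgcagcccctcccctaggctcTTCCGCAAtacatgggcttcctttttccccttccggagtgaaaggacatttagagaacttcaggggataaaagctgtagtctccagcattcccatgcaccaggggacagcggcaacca
Cd209f: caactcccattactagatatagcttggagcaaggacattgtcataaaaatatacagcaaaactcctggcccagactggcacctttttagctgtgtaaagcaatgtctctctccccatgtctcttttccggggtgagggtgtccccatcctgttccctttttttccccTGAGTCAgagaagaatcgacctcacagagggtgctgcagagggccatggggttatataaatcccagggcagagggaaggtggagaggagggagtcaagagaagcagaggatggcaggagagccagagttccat
Cd209g: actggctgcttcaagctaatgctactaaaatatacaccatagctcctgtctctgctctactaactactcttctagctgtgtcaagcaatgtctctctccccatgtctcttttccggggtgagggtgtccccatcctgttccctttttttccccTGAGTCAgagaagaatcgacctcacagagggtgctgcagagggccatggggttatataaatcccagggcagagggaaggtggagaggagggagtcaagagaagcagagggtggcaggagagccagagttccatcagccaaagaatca
Cd209a: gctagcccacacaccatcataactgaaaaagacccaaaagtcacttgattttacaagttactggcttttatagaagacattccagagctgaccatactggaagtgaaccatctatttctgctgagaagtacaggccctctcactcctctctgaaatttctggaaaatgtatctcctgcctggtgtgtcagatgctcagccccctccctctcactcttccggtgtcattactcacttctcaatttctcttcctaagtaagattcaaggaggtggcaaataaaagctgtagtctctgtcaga
Motifs searched were GAGGAA (the core bound by PU.1, the master factor of myeloid cells), TGANTCA (AP-1) and TTGCNNAA (C/EBP), and none of the matches overlap. Cd209f has an AP-1 match, TGAGTCA, 83 bases before the start, and Cd209g has the same match 97 bases before its start. Cd209b has a C/EBP match 68 bases before the start, which reads TTCCGCAA on the printed strand. None of the 3 motifs was found in the windows of Timd4 and Cd209a, and GAGGAA was in none of the 5 windows. Over 32851 promoters of the same length, 28.3% hold GAGGAA, 7.81% hold TGANTCA and 10.8% hold TTGCNNAA. Cd209f and Cd209g share an identical run of 180 bases that includes the AP-1 match. These matches describe the letters and say nothing of binding.

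Of 23 listed genes of resident border macrophages, all of which were tested, 21 were lower and 1 was higher in donor cells, against 13.3% and 16.9% of all genes, and in 21 the libraries did not overlap, against 19.9% of all genes. The list's median was -1.18 (log2) and that of all genes 0.02, and under pan-macrophage scaling the median was -0.50 with 13 lower and 2 higher. Cd163, the scavenger receptor for haemoglobin bound to haptoglobin, had 33.7 to 83.8 CPM in donor cells (median 63.6), against 595 and 741 CPM in mutant-chimera host cells and 410 and 413 CPM in control-chimera host cells. Its difference was -3.12 ± 0.25 (log2; edgeR adjusted p = 2.68e-09), with no overlap. Lyve1, a hyaluronan receptor of perivascular and meningeal macrophages, had 107 to 254 CPM in donor cells (median 222), against 810 and 1026 CPM in mutant-chimera host cells and 529 and 657 CPM in control-chimera host cells. The difference was -1.90 ± 0.26 (log2; edgeR adjusted p = 6.22e-06), with no overlap.

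The mannose receptor gene Mrc1 (CD206), the usual marker of border macrophages, differed less. It had 408 to 629 CPM in donor cells (median 578), against 1345 and 1619 CPM in mutant-chimera host cells and 986 and 1345 CPM in control-chimera host cells, a log2 difference of -1.26 ± 0.11 (edgeR adjusted p = 5.37e-13). The scavenger receptors Colec12 and Stab1 were lower by -3.13 ± 0.25 (adjusted p = 4.58e-14) and -1.18 ± 0.11 (adjusted p = 5e-12). Folr2, a folate receptor of resident macrophages, was lower by -1.01 ± 0.17 (adjusted p = 6.18e-05), a call that was lost under pan-macrophage scaling with a difference of -0.34. Mgl2, a galactose-binding lectin chosen after its values were seen as the single member that was higher, had 728 to 948 CPM in donor cells (median 828), against 338 and 391 CPM in mutant-chimera host cells and 238 and 318 CPM in control-chimera host cells. It was higher by 1.37 ± 0.13 (edgeR adjusted p = 1.4e-11), with no overlap. The fatty acid receptor gene Cd36, the single member that did not pass the test, differed by -0.20 ± 0.13 (adjusted p = 0.271), but it was called lower at -0.43 under library totals and higher at 0.49 under pan-macrophage scaling.

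**Figure D2:**
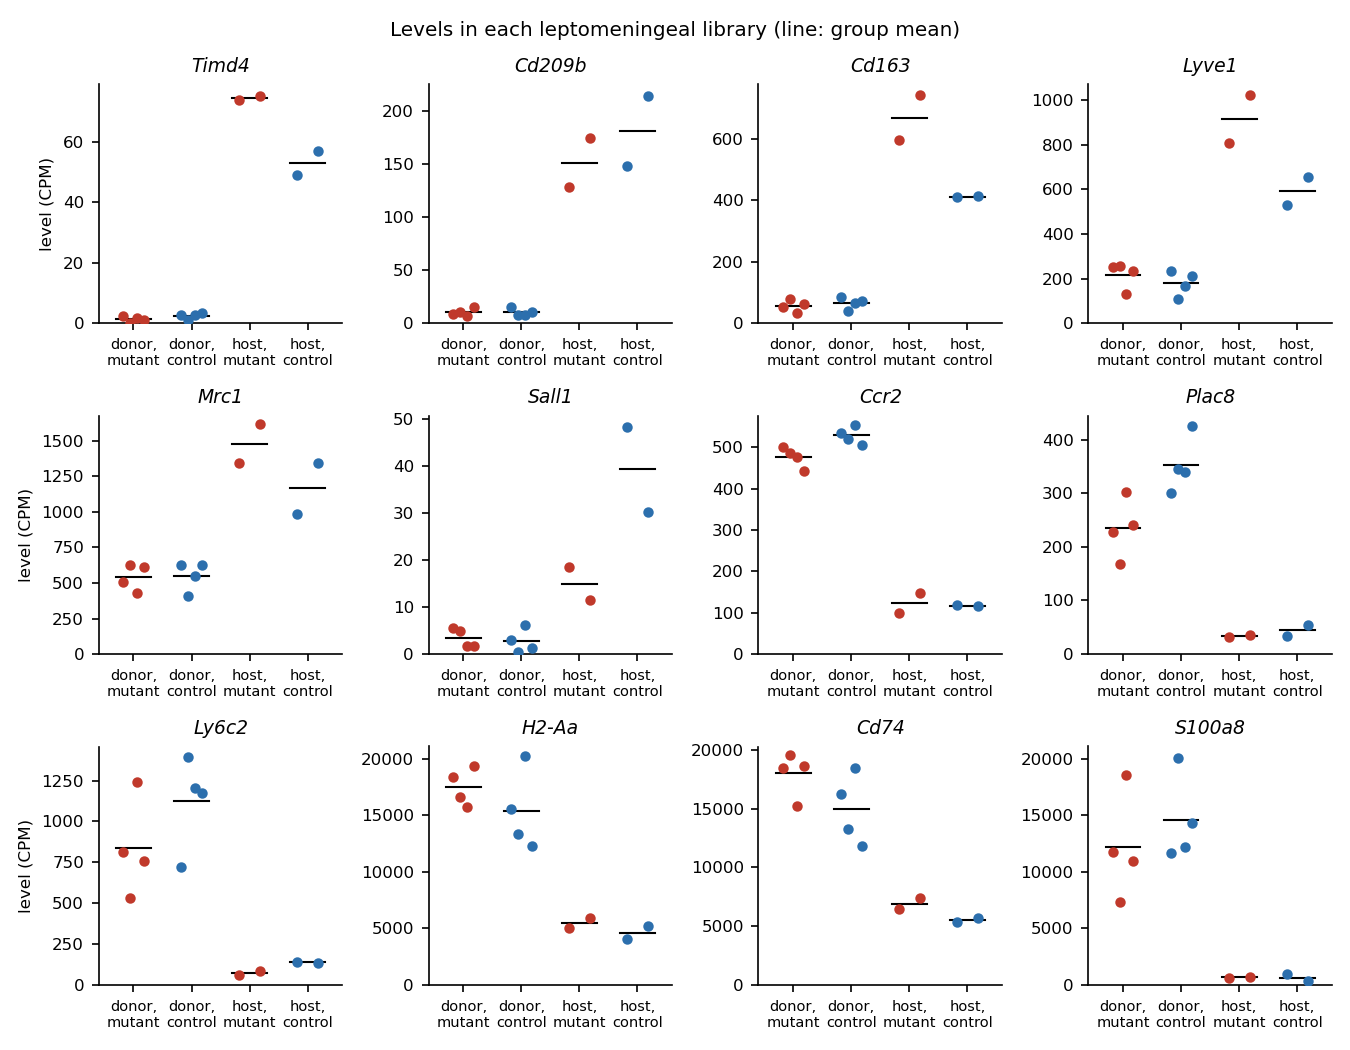
Points are the levels (CPM) of 12 genes in each of the 12 leptomeningeal libraries, 4 donor mutant, 4 donor control, 2 host mutant and 2 host control, and lines are group means. Donor libraries lie below the 4 host libraries for Timd4, Cd209b, Cd163, Lyve1, Mrc1 and Sall1, and above them for Ccr2, Plac8, Ly6c2, H2-Aa, Cd74 and S100a8.

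Monocyte genes went the other way. Of 20 listed genes 18 were tested, 17 of them higher and 1 lower in donor cells, against 16.9% and 13.3% of all genes. The list's median was 2.14 (log2). Ccr2 had 444 to 554 CPM in donor cells (median 504), against 98.7 and 149 CPM in mutant-chimera host cells and 117 and 116 CPM in control-chimera host cells. It was higher by 2.05 ± 0.23 (edgeR adjusted p = 2.54e-07) with no overlap, and the 8 donor libraries lay close together. Plac8 had 168 to 426 CPM in donor cells (median 302), against 31.9 and 36.3 CPM in mutant-chimera host cells and 33.8 and 54.8 CPM in control-chimera host cells, and was higher by 2.90 ± 0.24 (edgeR adjusted p = 5.76e-10). Ly6c2, the surface mark of classical monocytes and a near copy of Ly6c1 with which its reads may be shared, had 531 to 1392 CPM in donor cells (median 994), against 63.7 and 84.8 CPM in mutant-chimera host cells and 144 and 138 CPM in control-chimera host cells. It was chosen after its values were seen and was higher by 3.24 ± 0.31 (edgeR adjusted p = 3.14e-08).

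Genes of adhesion and migration were among the monocyte genes that were higher. The hyaluronan receptor gene Cd44 was higher by 2.16 ± 0.16 (adjusted p = 4.9e-15) and the calcium-binding S100a4 by 2.11 ± 0.19 (adjusted p = 2.65e-11) on the log2 scale. Itgb7, an integrin subunit of the chemokine receptor and integrin list, was higher by 1.90 ± 0.17 (adjusted p = 4.88e-11), while Selplg, an adhesion ligand on leukocytes and a gene of microglia, was lower by -1.06 ± 0.10 (adjusted p = 1.82e-11). In that list 11 of 24 tested members were higher and 6 were lower, against 16.9% and 13.3% of all genes. It had 11 lower under library totals, where 3088 of 12327 genes were lower. Under pan-macrophage scaling it had 15 higher and 2 lower, where 6866 genes were higher and 380 lower. The single monocyte gene that was lower was F13a1, a coagulation factor subunit that is also on the border macrophage list. It had 490 to 726 CPM in donor cells (median 583), against 1081 and 1410 CPM in mutant-chimera host cells and 983 and 1102 CPM in control-chimera host cells, and its call was lost at -0.25 under pan-macrophage scaling.

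Genes that mark marrow-derived macrophages in the brain parenchyma were mixed. Of 22 tested, 14 were higher and 6 were lower, against 16.9% and 13.3% of all genes, with a median of 0.80 (log2). Under library totals 12 were higher and 7 lower, where 1317 of 12327 genes were higher and 3088 lower. Under pan-macrophage scaling 16 were higher and 3 lower, where 6866 genes were higher and 380 lower. The intermediate filament gene Vim was higher by 2.10 ± 0.17 (adjusted p = 2.58e-11), the inhibitory lectin gene Clec12a by 1.54 ± 0.13 (adjusted p = 2.95e-13) and Axl, a receptor kinase for dying cells, by 1.26 ± 0.12 (adjusted p = 9.58e-12). Ms4a7, which tells macrophages of marrow origin from microglia in the parenchyma, had 134 to 253 CPM in donor cells (median 204), against 398 and 491 CPM in mutant-chimera host cells and 367 and 323 CPM in control-chimera host cells. It was lower by -0.98 ± 0.14 (edgeR adjusted p = 2.65e-06), and the call was lost under pan-macrophage scaling with a difference of -0.31.

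Neutrophil genes moved with the donor sort. Of 30 listed genes 26 were tested. In donor cells 25 were higher and 0 lower, against 16.9% and 13.3% of all genes, with a median of 4.24 (log2). Their share of all UMIs was 3.83% to 10.3% in donor libraries and 0.214% to 0.632% in host libraries, and none of the listed genes in the table was at 0 in either sort. S100a8, a subunit of calprotectin, had 7324 to 20078 CPM in donor cells (median 11955), against 636 and 739 CPM in mutant-chimera host cells and 973 and 334 CPM in control-chimera host cells, a difference of 4.31 ± 0.61 (edgeR adjusted p = 9.64e-06). The granule protease gene Elane, expressed by neutrophil precursors, had 16.6 to 857 CPM in donor cells (median 361), against 0 CPM in both mutant-chimera host libraries and 0 and 10.1 CPM in control-chimera host libraries. Ly6g, the defining surface mark of mature neutrophils, chosen after its values were seen, had 47.0 to 145 CPM in donor cells (median 79.5), against 4.11 and 7.40 CPM in mutant-chimera host cells and 6.14 and 0 CPM in control-chimera host cells.

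The neutrophil share moves with the monocyte, glycolysis and cell cycle genes named here and its part in those results was not tested. Border macrophage genes took their lowest donor shares, 0.518% and 0.573%, in control library 2 and mutant library 3, which had the highest neutrophil shares. The part of the neutrophil share in the genes called lower was not tested either. A fit without both donor libraries richest in neutrophil UMIs, control library 2 (10.3%) and mutant library 3 (8.89%), was chosen after seeing the data and gave 3150 called genes. Of these called genes 1741 were higher and 1409 lower in donor cells. In it 17 monocyte genes were higher, 20 border macrophage genes and 24 microglial genes were lower, 12 MHC class II genes were higher, and 31 cell cycle genes were higher. The donor libraries left in this fit still had neutrophil shares of 3.83% or more, against at most 0.632% in host libraries. The fit thus does not take that share out of the comparison. Ccr2, Plac8 and Timd4 were called in each of the 22 settings tried, all of which draw on the same libraries.

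**Figure D3:**
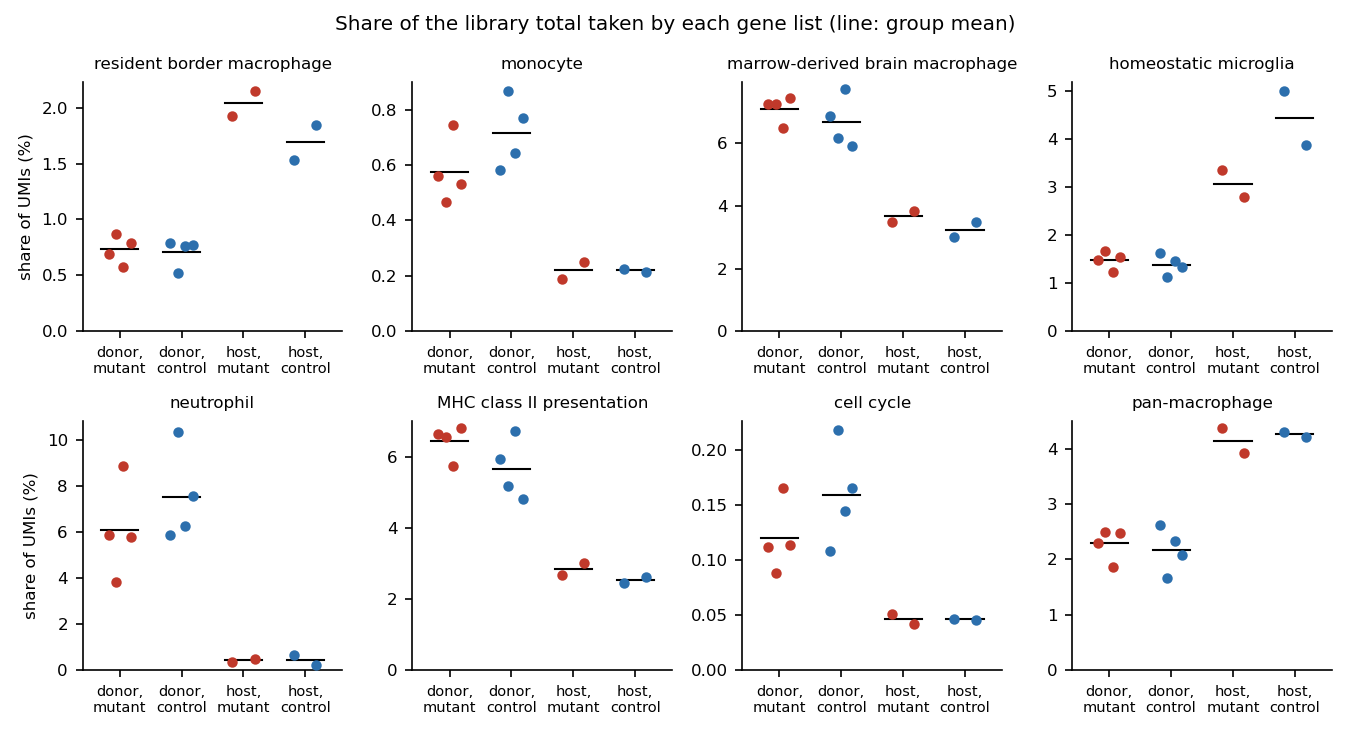
Points are the shares of the library total (% of UMIs) taken by 8 gene lists in each of the 12 leptomeningeal libraries, 4 donor mutant, 4 donor control, 2 host mutant and 2 host control, and lines are group means. Neutrophil genes take 3.83% to 10.3% in donor and 0.214% to 0.632% in host libraries, and homeostatic microglia genes 1.12% to 1.67% in donor and 2.78% to 5.00% in host libraries.

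Microglial genes moved with the host sort. Of 26 genes of homeostatic microglia, 24 were lower in donor cells and 0 higher, against 13.3% and 16.9% of all genes. Their median was -1.97 (log2). P2ry12, the purine receptor by which microglia sense injury, had 46.9 to 187 CPM in donor cells (median 118), against 561 and 654 CPM in mutant-chimera host cells and 1149 and 771 CPM in control-chimera host cells, a difference of -2.80 ± 0.26 (edgeR adjusted p = 1.73e-08). Sall1, the transcription factor that sets microglial identity, had 0.382 to 6.07 CPM in donor cells (median 2.38), against 18.5 and 11.4 CPM in mutant-chimera host cells and 48.4 and 30.2 CPM in control-chimera host cells. It was lower by -3.07 ± 0.33 (edgeR adjusted p = 5.7e-09), with no overlap. Tmem119 was lower by -2.17 ± 0.18 (adjusted p = 1.13e-09), the adhesion receptor gene Adgrg1 by -3.95 ± 0.18 (adjusted p = 1.26e-17) and the crystallin gene Crybb1 by -3.32 ± 0.15 (adjusted p = 1.88e-18).

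The microglial genes took 1.12% to 1.67% of UMIs in donor and 2.78% to 5.00% in host leptomeningeal libraries, against 9.79% to 12.2% in host cells of the parenchyma, and the part of such cells in the host sort was not tested. P2ry12 averaged 3204 CPM and Sall1 292 CPM in host cells of the parenchyma. In the host leptomeningeal libraries they averaged 784 and 27.1 CPM. Cx3cr1, the gene that carries the reporter, had 697 to 988 CPM in donor cells (median 775), against 804 and 787 CPM in mutant-chimera host cells and 1231 and 1025 CPM in control-chimera host cells. In host cells GFP replaces a copy of this gene, and the sort used GFP, which limits the comparison. Cx3cr1 did not pass the test at -0.24 ± 0.17 (adjusted p = 0.327), and its libraries overlapped. Its direction turned with the scaling, since it was called lower at -0.47 under library totals and higher at 0.45 under pan-macrophage scaling, and with the compared groups alone it was called lower at -0.26.

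Genes of several other cell types were also present in both sorts. Their calls stand beside 16.9% of all genes higher and 13.3% lower. B cell genes took 0.051% to 0.405% of UMIs in donor and 0.064% to 0.546% in host libraries, a wide spread within each sort. Of 8 tested 1 was higher and 2 lower in donor cells, which for so short a list is near the shares of all genes. The B cell median was -0.17, and 0.48 under pan-macrophage scaling. T and NK cell genes took 0.039% to 0.060% of UMIs in donor and 0.064% to 0.091% in host libraries, and 0 of 19 were higher and 4 lower in donor cells with a median of -0.40, which was 0.28 under pan-macrophage scaling with 2 higher and 1 lower. The lower members included Cd4, a co-receptor of helper T cells that some macrophages also express, at -2.70 ± 0.20 (adjusted p = 1.16e-14). The T cell receptor complex gene Cd3e, chosen after its values were seen, had 5.74 to 11.1 CPM in donor cells, against 10.3 and 11.4 CPM in mutant-chimera host cells and 2.30 and 15.7 CPM in control-chimera host cells, with overlap. Mast cell genes reached 0.040% in host library 1 of control chimeras, and of 7 tested the 4 that were lower in donor cells were 0 without that library. Fibroblast and mural genes took 0.375% to 0.522% in donor and 0.376% to 0.569% in host libraries, and the 5 of 11 that were higher in donor cells were 2 without host library 1 of mutant chimeras or without host library 1 of control chimeras, and 1 under library totals.

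The genes with the largest differences, outside the markers already given, included both known and little described genes. Ccn1, a secreted matrix protein, had 0.543 to 5.59 CPM in donor cells (median 1.89), against 90.5 and 74.0 CPM in mutant-chimera host cells and 42.2 and 70.4 CPM in control-chimera host cells, a difference of -5.08 ± 0.30 (edgeR adjusted p = 2.28e-18). The predicted gene Gm37239, mm10 chromosome 1, was lower by -4.95 ± 0.42 (adjusted p = 2.43e-12). The sarcoglycan gene Sgce was lower by -3.70 ± 0.24 (adjusted p = 4.28e-17), the semaphorin gene Sema4g by -3.64 ± 0.27 (adjusted p = 7.49e-15) and Slc2a5, a fructose transporter known from microglia, by -3.66 ± 0.21 (adjusted p = 2.59e-14).

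On the higher side, many of the leading genes are known from granulocyte precursors and neutrophils. They included the serine protease gene Prss57 at 5.16 ± 0.90 (adjusted p = 9e-05), the secreted Olfm4 at 5.63 ± 1.18 (adjusted p = 0.00108), the membrane gene Ms4a3 at 4.63 ± 0.68 (adjusted p = 2.07e-05) and the secreted Wfdc21 at 5.01 ± 0.40 (adjusted p = 2.65e-09) on the log2 scale. Inhba, a subunit of activin A, had 29.0 to 97.5 CPM in donor cells (median 56.4), against 3.08 and 0.673 CPM in mutant-chimera host cells and 2.30 and 2.24 CPM in control-chimera host cells. It was higher by 4.89 ± 0.41 (edgeR adjusted p = 1.99e-11) with no overlap, resting on 1014 UMIs in donor and 9 in host libraries.

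Genes of MHC class II presentation were higher in donor cells. Of 15 tested, 12 were higher and 2 lower, against 16.9% and 13.3% of all genes, so the share that was lower was near that of all genes. The list's median was 1.33 (log2), and 12 were higher in each of the alternative settings. H2-Aa, a chain of the class II molecule, had 12327 to 20263 CPM in donor cells (median 16182), against 5007 and 5897 CPM in mutant-chimera host cells and 4029 and 5220 CPM in control-chimera host cells. It was higher by 1.71 ± 0.22 (edgeR adjusted p = 1.78e-06), with no overlap. The invariant chain gene Cd74 was higher by 1.41 ± 0.16 (adjusted p = 2.19e-08) and Ciita, the activator that switches class II genes on, by 1.75 ± 0.15 (adjusted p = 9.73e-12). The peptide-loading genes H2-DMb1, H2-DMb2 and H2-Oa were higher by 1.33 ± 0.11, 1.98 ± 0.19 and 1.61 ± 0.14. The 2 lower members, named after their values were seen, were the protease gene Ctss at -0.57 ± 0.10 (adjusted p = 5.8e-06) and the costimulatory gene Cd86 at -0.91 ± 0.24 (adjusted p = 0.00534). Neither was called under pan-macrophage scaling, where Ctss stood at 0.12 and Cd86 at -0.22.

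Complement genes were divided. Of 19 tested, 5 were higher and 11 lower in donor cells, against 16.9% and 13.3% of all genes. The list's median was -0.62 (log2), and 0.08 under pan-macrophage scaling with 8 higher and 4 lower. There 6866 of 12327 genes were higher and 380 lower. C1qa, C1qb and C1qc are also among the 15 genes that set this scaling, which pulls their own differences towards 0 by construction. C2, the protease of the classical pathway, had 4.15 to 6.5 CPM in donor cells (median 5.43), against 79.2 and 90.2 CPM in mutant-chimera host cells and 49.1 and 74.9 CPM in control-chimera host cells, a log2 difference of -3.77 ± 0.22 (edgeR adjusted p = 1.88e-18). C4b, its partner in the C3 convertase, was lower by -2.16 ± 0.14 (adjusted p = 9.89e-14), with 171 to 270 CPM in donor cells, against 1271 and 1209 CPM in mutant-chimera host cells and 749 and 831 CPM in control-chimera host cells. C1qa was lower by -0.86 ± 0.11 (adjusted p = 9.03e-09), a call that was lost under pan-macrophage scaling, which C1qa itself helps to set. Itgax, an integrin receptor for cleaved C3, was higher by 1.88 ± 0.20 (adjusted p = 6.4e-10). C3 itself, chosen after its values were seen and also expressed by neutrophils, was higher by 3.48 ± 0.41 (adjusted p = 6.69e-07).

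Of 22 chemokine genes tested 9 were higher and 4 lower, against 16.9% and 13.3% of all genes. The share that was lower was near that of all genes. The list's median was 0.37 (log2). Under pan-macrophage scaling 13 were higher and 2 lower, where 6866 of 12327 genes were higher and 380 lower. Ccl24, an eosinophil attractant made by resident macrophages, had 47.0 to 97.3 CPM in donor cells (median 71.7), against 207 and 281 CPM in mutant-chimera host cells and 200.4 and 264 CPM in control-chimera host cells. Ccl24 was lower by -1.75 ± 0.14 (edgeR adjusted p = 3.67e-13), with no overlap. Ccl9, Ccl6 and Cxcl16 were higher by 1.57 ± 0.20 (adjusted p = 2.16e-08), 0.91 ± 0.12 (adjusted p = 1.86e-08) and 0.78 ± 0.11 (adjusted p = 6.55e-08). The cytokine gene Il1b had 645 to 1084 CPM in donor cells (median 796), against 191 and 267 CPM in mutant-chimera host cells and 202 and 311 CPM in control-chimera host cells, and was higher by 1.72 ± 0.17 (edgeR adjusted p = 6.21e-09).

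Genes of lysosomes and general macrophage function were lower in donor cells relative to all genes. Of 27 lysosome and cathepsin genes tested 19 were lower and 1 was higher, against 13.3% and 16.9% of all genes. The list's median was -0.55 (log2), and 22 were lower under library totals, where 3088 of 12327 genes were lower. Under pan-macrophage scaling the median was 0.15 with 7 lower and 8 higher, where 380 genes were lower and 6866 higher. The aspartic protease gene Ctsd had 1476 to 2522 CPM in donor cells (median 2278), against 6955 and 4918 CPM in mutant-chimera host cells and 7560 and 6492 CPM in control-chimera host cells, and was lower by -1.58 ± 0.11 (edgeR adjusted p = 1.36e-15). Ctse was lower by -2.49 ± 0.20, Ctsl by -1.56 ± 0.11 and Ctsf by -1.51 ± 0.12, and these 4 were called under both other scalings. Lysosome and cathepsin genes took a median of 2.80% of UMIs in donor and 5.54% in host leptomeningeal libraries, against 10.6% in host cells of the parenchyma. The part of microglial RNA in the host sort in this result was not tested. Of 15 pan-macrophage genes 14 were lower and 0 higher, with a median of -0.69, which is 0.02 by construction when libraries are scaled to these genes. They took 1.66% to 2.61% of UMIs in donor and 3.92% to 4.38% in host libraries. Csf1r, the receptor for the growth factor that keeps macrophages alive, was lower by -0.44 ± 0.11 (adjusted p = 0.00124), and Apoe, a lipid carrier, by -0.46 ± 0.12 (adjusted p = 0.00192), but under pan-macrophage scaling they stood at 0.24 and 0.21. Csf1r is 1 of the 15 genes that set that scaling.

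Genes of cell division were higher in donor cells. Of 37 cell cycle genes tested 35 were higher and 0 lower, against 16.9% and 13.3% of all genes, with a median of 2.61 (log2). Top2a, the DNA topoisomerase of dividing cells, had 67.6 to 185 CPM in donor cells (median 113), against 11.3 and 6.73 CPM in mutant-chimera host cells and 7.68 and 12.3 CPM in control-chimera host cells, a difference of 3.60 ± 0.30 (edgeR adjusted p = 9.9e-11). The mitotic genes Cdc20, Aurkb and Prc1 were higher by 3.61 ± 0.35, 3.32 ± 0.35 and 2.82 ± 0.32. Cell cycle genes took 0.088% to 0.218% of UMIs in donor and 0.042% to 0.050% in host libraries, and the highest shares, 0.218% and 0.165%, were in the same control library 2 and mutant library 3 that had the highest neutrophil shares. The part of neutrophil precursors in this result was not tested.

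Of 26 targets of the DNA damage factor p53, 9 were lower and 4 higher in donor cells, against 13.3% and 16.9% of all genes. The share that was higher was thus near that of all genes. The list's median was -0.37 (log2), and 15 were lower under library totals, where 3088 of 12327 genes were lower. Under pan-macrophage scaling the median was 0.32, with 3 lower and 8 higher, where 380 genes were lower and 6866 higher. Cdkn1a, the cell cycle inhibitor p21 that DNA damage induces, had 479 to 666 CPM in donor cells (median 548), against 1027 and 1281 CPM in mutant-chimera host cells and 1394 and 1142 CPM in control-chimera host cells. It was lower by -1.13 ± 0.11 (edgeR adjusted p = 1.37e-11), with no overlap and the same direction under the scalings tried. Phlda3 was lower by -2.45 ± 0.29 (adjusted p = 1.64e-08), while Bax, at -0.84 ± 0.11 (adjusted p = 4.45e-08), lost its call under pan-macrophage scaling.

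Of 44 cytosolic ribosomal protein genes, 39 were higher in donor cells and 0 lower, against 16.9% and 13.3% of all genes. Their median was 0.57 (log2), and 30 were higher under library totals, where 1317 of 12327 genes were higher. Rplp0, part of the ribosomal stalk, had 2592 to 3342 CPM in donor cells (median 3009), against 1721 and 1562 CPM in mutant-chimera host cells and 1574 and 1454 CPM in control-chimera host cells, and was higher by 0.92 ± 0.09 (edgeR adjusted p = 1.99e-11). Of 24 glycolysis and hypoxia genes tested 17 were higher and 1 lower, with a median of 0.78, and 12 were higher under library totals. The lactate exporter gene Slc16a3 was higher by 1.80 ± 0.17 (adjusted p = 6.16e-12), the glucose transporter gene Slc2a3 by 2.29 ± 0.24 (adjusted p = 2.04e-10) and the pyruvate kinase gene Pkm by 1.24 ± 0.12 (adjusted p = 1.73e-11). Of 59 oxidative phosphorylation genes 28 were higher and 0 lower, with a median of 0.28, but 6 were higher and 6 lower under library totals, and 17 were higher without host library 2 of mutant chimeras or without host library 1 of control chimeras.

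**Figure D4:**
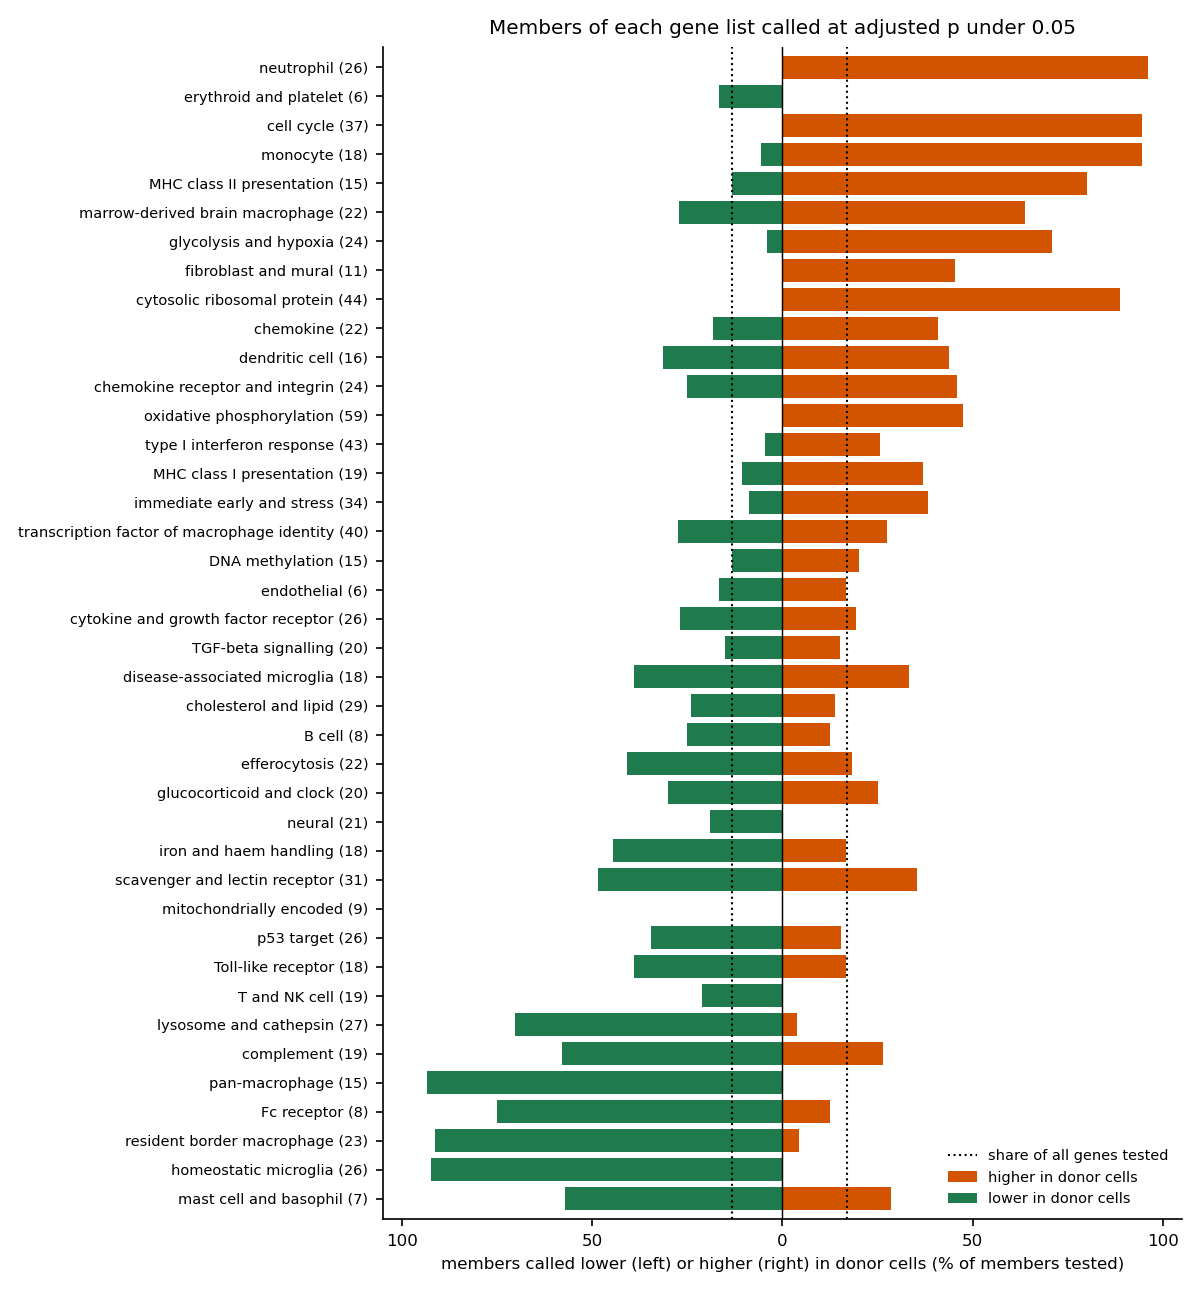
Bars give the percentage of tested members (number in brackets) called lower (left, green) or higher (right, orange) in donor cells for 40 gene lists, ordered by median difference, and dotted lines give the share over all genes, 13.3% lower and 16.9% higher. Microglial, border macrophage and pan-macrophage genes fill the lower side and neutrophil, cell cycle, monocyte and ribosomal genes the higher side, while the median turns sign under another scaling for 22 of these lists, among them lysosome, complement, p53 target, pan-macrophage, Toll-like receptor, T and NK cell and B cell genes and transcription factors of macrophage identity.

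Transcription factors of macrophage identity were split under the TMM scaling. Of 40 tested 11 were higher and 11 lower, against 16.9% and 13.3% of all genes, and 7 were lower without host library 1 of control chimeras. Their balance depended on the scaling. The median of 0.13 (log2) turned to -0.10 under library totals, with 10 higher and 14 lower. There 1317 of 12327 genes were higher and 3088 lower. Under pan-macrophage scaling the median was 0.84, with 26 higher and 3 lower, where 6866 genes were higher and 380 lower. Maf, which keeps macrophages differentiated, had 60.4 to 98.8 CPM in donor cells (median 72.7), against 153 and 160 CPM in mutant-chimera host cells and 157 and 170 CPM in control-chimera host cells. It was lower by -1.11 ± 0.11 (edgeR adjusted p = 7.24e-11), with little spread in either sort. Sall3, a relative of Sall1, was lower by -3.90 ± 0.36 (adjusted p = 9.41e-12), and Runx3, a factor of blood cells, was higher by 1.29 ± 0.16 (adjusted p = 9.52e-09). Spi1, which encodes PU.1 and was chosen after its values were seen, had 825 to 949 CPM in donor cells (median 888), against 873 and 761 CPM in mutant-chimera host cells and 897 and 740 CPM in control-chimera host cells. It did not pass the test at 0.12 ± 0.09 (adjusted p = 0.363), and stood at -0.11 under library totals and at 0.83, where it was called, under pan-macrophage scaling.

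The difference between donor and host cells was also taken within each genotype. In mutant chimeras 2185 genes (17.7%) were called, 1202 (9.75%) higher and 983 (7.97%) lower, and in control chimeras 2541 genes (20.6%), 1489 (12.1%) higher and 1052 (8.53%) lower. In both genotypes 985 genes (7.99%) were higher and 626 (5.08%) lower, and 1 was called in opposite directions. Timd4 differed by -5.86 in mutant and -4.42 in control chimeras, Cd209b by -3.89 and -4.18, Ccr2 by 1.93 and 2.18, and Plac8 by 2.77 and 3.03 on the log2 scale. With 2 host libraries per genotype, 1 library weighs heavily. The count fell to 1432 and 1136 genes without host library 1 or 2 of mutant chimeras, and to 1298 without host library 1 of control chimeras.

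Tested directly, the difference between genotypes passed for 1 gene (0.00811%), with 506 genes at an unadjusted p under 0.05. DESeq2 called 7 genes. The 1 gene was Spint1, an inhibitor of serine proteases on the cell surface (mm10 chromosome 2, 119237362 to 119249527). In mutant chimeras it had 13, 8.29, 12 and 14.6 CPM in donor cells, against 26.7 and 17.5 CPM in host cells. In control chimeras it had 4.06, 0.76, 1.66 and 0.41 CPM in donor cells, against 49.1 and 36.9 CPM in host cells. Donor libraries of mutant chimeras thus lay above those of control chimeras, host libraries of mutant chimeras lay below those of control chimeras, and donor levels lay below host levels in both genotypes. The donor minus host difference was -0.80 ± 0.30 in mutant and -4.71 ± 0.35 in control chimeras, and these differed by 3.91 ± 0.47 (log2; edgeR adjusted p = 1.69e-06).

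**Figure D5:**
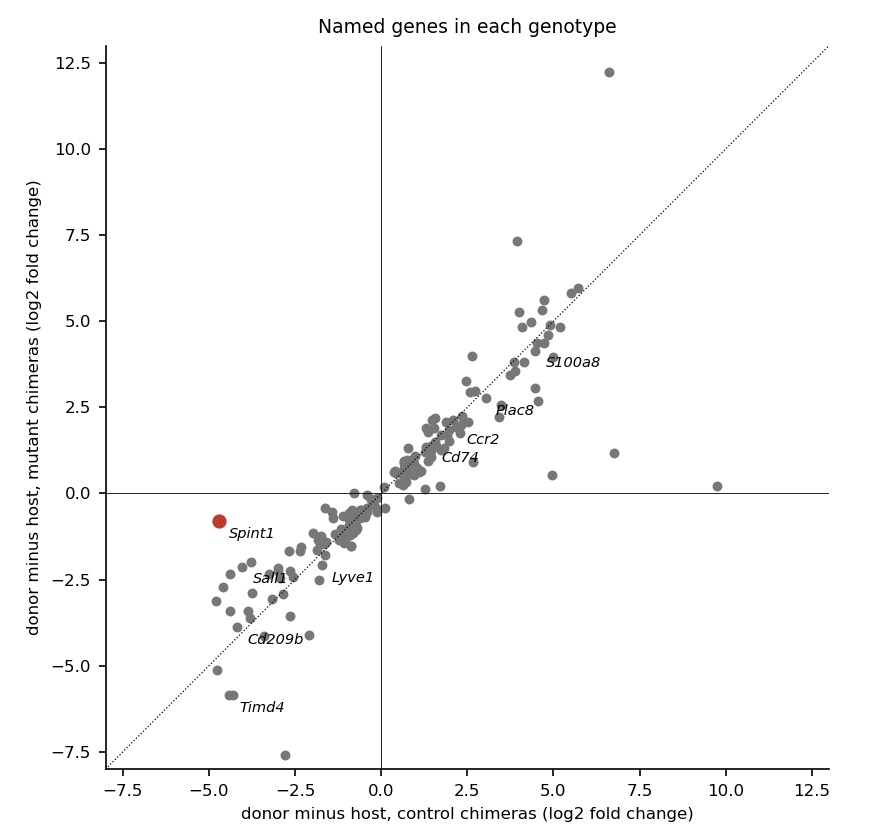
Points are the named genes with UMIs in both sorts, with the log2 difference donor minus host in mutant chimeras on the vertical axis and in control chimeras on the horizontal axis, and the dotted line marks equal differences. Spint1 (red), at -0.80 in mutant and -4.71 in control chimeras, is the gene whose difference between genotypes passed the test.

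Mouse Dnmt3a does not check the labels, since the allele in the marrow is a human one whose UMIs are not listed apart. Dnmt3a, a DNA methyltransferase, had 18 to 38.0 CPM in donor cells (median 31.7), against 42.1 and 44.4 CPM in mutant-chimera host cells and 49.9 and 40.3 CPM in control-chimera host cells. It was lower in donor cells by -0.55 ± 0.15 (edgeR adjusted p = 0.00313), while under pan-macrophage scaling it stood at 0.14, and the call was lost without host library 1 of control chimeras.

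Donor and host cells of the brain parenchyma, labelled as microglia, with 8 libraries each, were compared in the same way, and the differences of both compartments were set against each other. The donor minus host difference differed between compartments for 5209 genes (42.3%). Border macrophage genes went in opposite directions, with 1 of 23 higher and 21 lower in donor cells of the leptomeninges, and 14 higher and 1 lower in those of the parenchyma, where 33.1% of all genes were higher and 27.3% lower. Mrc1 differed by -1.26 in the leptomeninges and 3.66 in the parenchyma, and the difference between compartments was -4.92 (edgeR adjusted p = 3.14e-28). Ms4a7 differed by -0.98 and 5.43, Apoe by -0.46 and 4.71, and Cd163 by -3.12 and 2.53. Monocyte genes were higher in both, 17 of 18 in the leptomeninges and 18 of 18 in the parenchyma, with medians of 2.14 and 2.94. Ccr2 was higher by 2.05 and 3.12, with a difference between compartments of -1.07 (adjusted p = 0.0161). For Plac8, at 2.90 and 2.85, the difference between compartments was 0.05 and did not pass the test (adjusted p = 0.99). Microglial genes were lower in both, 24 of 26 and 26 of 26. Neural genes took 1.85% to 4.00% of UMIs in donor libraries of the parenchyma, against 0.035% to 0.082% in donor libraries of the leptomeninges. Mitochondrially encoded genes, a sign of RNA quality, moved with the parenchymal difference. Of 9 tested, 9 were higher in donor cells of the parenchyma with a median of 4.01 (log2), where they took 1.58% to 4.71% of UMIs in donor and 0.114% to 0.348% in host libraries. In the leptomeninges their median was -0.25, and they took 1.09% to 1.65% in donor and 1.57% to 1.93% in host libraries. The part of neural and mitochondrial RNA in these differences was not tested.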

How the data were processed

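The authors deposited 1 table of gene symbols that has, per the file headers, raw, normalized and rlog columns for each of 28 libraries. Its raw columns are, as the authors deposited them, whole UMI counts. The submitters' processing notes name mm10, with no aligner named. The deposited normalized columns hold signal scaled per library and the deposited rlog columns hold log2 values, and neither entered a test. The table held 14617 genes, of which edgeR's filterByExpr with the 8 groups of the series kept 12327, and every gene in the table had at least 6 UMIs in its best library.

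Counts were fitted with edgeR 4.0.16 (R 4.3.3), quasi-likelihood with robust dispersions, TMM factors and a mean for each group of the 28 libraries, so that the host groups of 2 libraries share the spread of the other groups. The donor minus host difference was averaged over genotypes, taken in each genotype, compared between genotypes and compared with the parenchyma. P-values were adjusted by Benjamini-Hochberg over the genes tested, with a threshold of 0.05. CPM were computed on TMM-scaled library totals, a level of 3 UMIs being the limit that a count of 0 allows, 1.15 to 2.07 CPM in donor and 2.02 to 3.35 CPM in host libraries, for counting error only. Differences carry the SE of the fit. The test was tried on simulated counts before use.

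The comparison, 41 gene lists and the rule for naming genes were chosen with earlier results of these data known. The rule took the 10 largest differences in each direction among genes called, with 10 CPM or more on average and no overlap, the same after leaving out genes of other cell types, up to 4 genes per list by smallest adjusted p, a set of markers, and the 5 largest in each direction of each difference of differences. Some genes that the rule took are not reported here. Alternatives were DESeq2 1.42.0 with its size factors and its test, limma 3.58.1 with voom, library totals, scaling to pan-macrophage genes, no filter, the compared groups alone, a replicate block, and each library left out. A fit without both donor libraries richest in neutrophil UMIs was added after seeing the data. Positions came from GENCODE M21, which matched 14340 symbols, and promoters from RefSeq on GRCm38.p6.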

Additional observations from a re-analysis of the deposited data

Results flagged for a closer look

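In 4 cases a library stood far from the other 3 of its group. For a single quantity, chance alone gives this in about 1 of 20 groups. Screened in both donor groups were total UMIs, the shares of 41 gene lists and a set of markers. Several such cases are therefore expected by chance alone. In control donor library 2, border macrophage genes took 0.518% of UMIs and endothelial genes 0.0911%, against 0.758% to 0.786% and 0.129% to 0.135% in the other control donor libraries. In mutant donor library 3, p53 target genes took 0.124% of UMIs, against 0.138% to 0.140% in the other mutant donor libraries. In the same library 3 Lyve1 stood at 129 CPM, against 233 to 254 CPM in the others. These 2 libraries also had the highest neutrophil shares of their genotype, 8.89% in mutant library 3 and 10.3% in control library 2, and the part of that share in these values was not tested.

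For Spint1 the donor minus host difference differed between genotypes by 3.91 (log2, mutant minus control), and it was called in each alternative at 3.57 to 4.72.

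Between compartments, the donor minus host difference of the leptomeninges minus that of the parenchyma was positive for the cytoskeletal Actn1 at 4.12, the collagen receptor gene Mrc2 at 4.10, the inhibitory lectin gene Siglecg at 3.77, Tmem40 at 3.72 and the mitotic Cdc20 at 3.62. Within the leptomeninges alone Mrc2 stood at 0.17 to 1.59 and was called in 1 of 22 settings. Most of its value thus came from the parenchyma. The other genes just named were called higher in the leptomeninges in each of the 22 settings. The difference between compartments was most negative for Mt3 at -9.95, Kcnj13 at -9.34, Nrsn1 at -8.84, Scg3 at -8.84 and Slc1a2 at -8.82, genes of astrocytes, choroid plexus or neurons. In the parenchyma Mt3 averaged 254 CPM in donor and 0.417 CPM in host libraries, and in the leptomeninges 4.99 CPM in donor and 8.43 CPM in host libraries. The part of neural RNA in these values was not tested. Macrophage genes differed too, Ms4a7 by -6.41, Cd163 by -5.64, Apoe by -5.17, Mrc1 by -4.92, Lyve1 by -3.52, Folr2 by -1.42 and Ccr2 by -1.07.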

How the results depend on the processing

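The averaged comparison called 2890 to 4405 genes under the alternatives other than pan-macrophage scaling, against 3719. Scaling to pan-macrophage genes called 7246 genes on average, 4286 in mutant and 5901 in control chimeras. Leaving out 1 library gave 2890 to 3769 genes on average, 1136 to 2231 in mutant and 1298 to 2587 in control chimeras, and 4616 to 5198 for the difference between compartments. The difference between genotypes was called for 7 genes by DESeq2, 2 by limma voom, 2 with the compared groups alone and 1 to 5 with 1 library left out (5 without control host library 1). With the replicate block, 3248 genes were called on average. Correlations of same-numbered donor and host libraries ran from -0.049 to 0.017. With 2 host libraries per genotype, whose deviations mirror each other, this check cannot tell whether the replicate numbers pair libraries. The difference between compartments was not fitted with the compared groups alone, since it uses every group.

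Under pan-macrophage scaling these called genes turned direction and stood at 0.025 for Trac, 0.19 for Trbc2, 0.058 for Cd22, 0.35 for Pltp, 0.014 for Pdia3, 0.11 for Canx, 0.13 for Il21r, 0.16 for Tlr13, 0.21 for Apoe, 0.028 for Tef, 0.14 for Dnmt3a, 0.24 for Csf1r and 0.12 for Ctss. Genes that had not passed the test also turned there, to 0.46 for Bsg, 0.54 for Eif2s3y, 0.45 for Cx3cr1 and 0.49 for Cd36, which were then called, and without a call to 0.29 for Uty, 0.42 for Ddx3y, 0.25 for mt-Nd2, 0.26 for mt-Nd5, 0.40 for mt-Co1, 0.42 for mt-Nd4, 0.53 for Scg3, 0.43 for Cd209c and 0.60 for Cd3e. Under library totals Kdm5d stood at -0.10 and Spi1 at -0.11, turned without a call. Scg3 turned to 0.017 with the replicate block and 0.035 without both neutrophil-rich donor libraries, and Cd3e to 0.20 by limma voom and 0.091 without those libraries. With 1 library left out, ranges across 0 were -3.56 to 1.36 for Cma1 and -1.13 to 1.71 for Kcnj13, both turning without control host library 1, -0.53 to 0.84 for Cd3e, and, turning without a mutant host library, -0.074 to 0.55 for Kdm5d, -0.39 to 0.50 for Scg3 and -0.43 to 0.065 for Cd209c. The scaling sets the median of the pan-macrophage genes near 0 by its construction, and the cause of the other changes was not tested. Host depth limits genes near 3 CPM.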

Other observations

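Receptor, clearance and interferon response genes were also compared between donor and host cells of the leptomeninges, where 16.9% of all genes were higher and 13.3% lower. Under library totals 1317 of 12327 genes were higher and 3088 lower, and under pan-macrophage scaling 6866 were higher and 380 lower. Of 31 scavenger and lectin receptor genes tested 11 were higher and 15 lower in donor cells, with a median of -0.22 (log2) that was 0.47 under pan-macrophage scaling with 16 higher and 8 lower. Of 8 Fc receptor genes 1 was higher and 6 were lower, with a median of -0.73 that was -0.04 under pan-macrophage scaling with 3 higher and 2 lower. Fcgrt, the receptor that recycles antibodies, had 400.0 to 592 CPM in donor cells (median 464), against 1361 and 1165 CPM in mutant-chimera host cells and 993 and 1049 CPM in control-chimera host cells, and was lower by -1.28 ± 0.09 (edgeR adjusted p = 7.13e-15). Of 18 Toll-like receptor pathway genes 3 were higher and 7 lower, with a median of -0.38 that was 0.31 under pan-macrophage scaling with 7 higher and 1 lower, and the share that was higher was near that of all genes. The double-stranded RNA receptor gene Tlr3 was lower by -1.56 ± 0.30 and the endotoxin receptor gene Tlr4 by -1.19 ± 0.19, a call that was lost at -0.49 under pan-macrophage scaling, while the adaptor gene Myd88 was higher by 0.53 ± 0.11.

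Of 22 efferocytosis genes 4 were higher and 9 lower, with a median of -0.17 that was 0.49 under pan-macrophage scaling with 11 higher and 4 lower, and the share that was higher was near that of all genes. Mertk, a receptor kinase for dying cells, was lower by -1.49 ± 0.12 (adjusted p = 1.08e-12), whereas its relative Axl was higher. Mertk had 69.2 to 120 CPM in donor cells (median 99.7), against 241 and 235 CPM in mutant-chimera host cells and 357 and 268 CPM in control-chimera host cells, with no overlap. Lgals3, a galactose-binding lectin induced in activated macrophages, had 972 to 1513 CPM in donor cells (median 1235), against 252 and 263 CPM in mutant-chimera host cells and 226 and 266 CPM in control-chimera host cells, and was higher by 2.30 ± 0.17 (edgeR adjusted p = 9.4e-12).

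Of 43 type I interferon response genes 11 were higher and 2 lower, with a median of 0.25, but 3 were higher and 6 lower under library totals, 35 higher and 0 lower under pan-macrophage scaling, and 5 were higher without mutant host library 2. Oas3, a sensor of viral RNA, had 37.6 to 60.3 CPM in donor cells (median 48.9), against 24.7 and 15.5 CPM in mutant-chimera host cells and 12.3 and 17.9 CPM in control-chimera host cells, and was called in each alternative. Of 16 dendritic cell genes 7 were higher and 5 lower, against 16.9% and 13.3% of all genes, with 10 higher and 2 lower under pan-macrophage scaling. Naaa, an amidase of dendritic cells, was higher by 1.32 ± 0.12 (adjusted p = 2.19e-12), and Fscn1, an actin bundler also expressed by microglia, was lower by -2.58 ± 0.18 (adjusted p = 9.7e-12).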
